A study of Mus musculus with 4 samples.

Results

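The AP-1 and other immediate-early genes were examined in skeletal muscle of mice lacking corticotropin-releasing factor receptor 2. The group comprised Fos, Fosb, Jun, Junb, Jund, Egr1, Atf3, Btg2, Ier2 and Zfp36, and every probe set that the platform annotation assigns to 1 of these 10 genes alone was taken, which gave 15 of 12422 non-control probe sets. The genes were chosen by their family with the genotype differences of these arrays in view, that is, selected on KO against WT values that include those of Junb and Atf3. Their KO against WT values are therefore a description and carry no test of the group. Of the 15 probe sets, 11 had a mean over the 4 arrays above that of the median probe set (68.7 intensity units), so each gene had at least 1 such probe set, and the other 4 were dim.

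Total RNA came from gastrocnemius and soleus muscles of untreated male Crhr2-/- mice (KO) and Crhr2+/+ littermates (WT), aged 6.5 months, on a C57BL/6x129 background and fed chow. RNA of 4 mice per genotype was joined into 2 pools of 2 mice, and each pool was hybridised to 1 Affymetrix U74Av2 array, on which short probes grouped into probe sets report each transcript. A replicate is thus a pool, the spread between replicates is that between 2 pools, and single mice cannot be read. The labels do not describe how the knockout allele was built, and both muscles were combined, so fibres of slow and fast muscle share each value. Each deposited value is a linear signal intensity in arbitrary units, already scaled between arrays.

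Immediate-early genes are transcribed within minutes of a stimulus from factors already present in the cell, without new protein synthesis. FOS and JUN proteins pair through leucine zippers to form AP-1, which binds DNA, and the makeup of the pair sets how strongly it activates transcription. The receptor encoded by Crhr2 couples to cyclic AMP and protein kinase A, a route that can reach Fos and Junb through the factor CREB at cyclic AMP response elements. In muscle these genes are known to respond to contraction, injury and handling of the tissue, and their short-lived mRNAs are kept low by decay factors such as that encoded by Zfp36.

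RefSeq upstream sequences (build GRCm38.p6) were at hand for 8 members: Fos, Fosb, Jun, Junb, Jund, Atf3, Btg2 and Zfp36. The core of the cyclic AMP response element, TGACG on either strand, was present in the 250 bases before the start site in 5 of these 8 windows, and in 17.8% of 32851 such windows of all genes. Those of Fos (chr12:85473640-85473889, plus strand), Junb (chr8:84978749-84978998, minus strand), Atf3 (chr1:191183334-191183583, minus strand) and Btg2 (chr1:134079156-134079405, minus strand) are shown because all carry the core, and because by brightest probe set they include the member with the lowest log2 fold change (Junb) and the one that differed most between pools (Fos). Sequences run 5′ to 3′ on the gene's strand and end 1 base before the start site, with capitals on TGACG and its complement, TATAAA and GCGNGGGCG.
Fos: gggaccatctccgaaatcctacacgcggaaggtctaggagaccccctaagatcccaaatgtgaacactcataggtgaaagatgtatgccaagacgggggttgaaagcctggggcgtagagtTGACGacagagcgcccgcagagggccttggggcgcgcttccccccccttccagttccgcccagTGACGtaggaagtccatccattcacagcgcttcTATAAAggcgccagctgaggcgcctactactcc
Junb: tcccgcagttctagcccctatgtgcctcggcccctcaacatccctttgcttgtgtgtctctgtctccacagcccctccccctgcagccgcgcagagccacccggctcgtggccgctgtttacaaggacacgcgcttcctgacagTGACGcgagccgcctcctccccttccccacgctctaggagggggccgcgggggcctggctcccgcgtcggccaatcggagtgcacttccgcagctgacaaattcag
Atf3: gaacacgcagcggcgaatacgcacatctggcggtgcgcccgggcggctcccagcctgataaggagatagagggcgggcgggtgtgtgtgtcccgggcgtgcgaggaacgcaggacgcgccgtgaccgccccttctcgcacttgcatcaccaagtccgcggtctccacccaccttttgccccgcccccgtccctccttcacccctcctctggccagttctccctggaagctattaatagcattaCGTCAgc
Btg2: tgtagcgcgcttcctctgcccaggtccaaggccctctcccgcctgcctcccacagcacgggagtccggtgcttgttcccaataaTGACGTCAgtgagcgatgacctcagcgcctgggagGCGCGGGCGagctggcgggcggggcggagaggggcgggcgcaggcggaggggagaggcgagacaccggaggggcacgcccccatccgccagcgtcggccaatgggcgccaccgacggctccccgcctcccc

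The Fos window held TGACG at -129 and -66, counted to the first base of the match from the start site, and the TATA sequence TATAAA at -33, a motif found in 12.4% of all windows. Junb held TGACG at -106, Fosb at -60, and Atf3 on the opposite strand at -7. Btg2 held the full palindrome TGACGTCA at -166, which 1.55% of all windows hold and which contains the core on both strands. The EGR recognition sequence GCGNGGGCG occurred in 3 of the 8 windows (Fosb, Btg2 and Zfp36), against 4.7% of all windows, and the CArG box, bound by serum response factor, in 1 (Zfp36), against 1.47%. The AP-1 sequence TGANTCA was in none of the 8, against 6.75% of all windows. These are matches of letters in a short window, all searched on both strands, and matches are no evidence of binding. Sequence farther upstream was not searched, so a motif absent here may lie outside the window. The 5 genes with TGACG covered log2 fold changes, KO minus WT, from -1.23 to 0.30, and the 3 without it from -0.23 to 0.42, so the ranges overlapped.

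Across the members, 6 of the 10 genes read lower and 4 higher in KO on average, each by its probe set with the highest mean. Values were compared as log2(intensity + 14), a pseudocount that shrinks the fold change of dim probe sets, and errors of fold changes are standard errors of the limma fit. On this scale 10 of the 15 probe sets were lower and 5 higher in KO on average, where all probe sets together split evenly. The median log2 fold change over the 10 genes was -0.09, and it was -0.0044 over all 8251 genes. In 12 of the 15 probe sets the larger of the differences between the pools of 1 genotype exceeded the difference between genotypes. This held for 78.0% of all probe sets, so the members' share was near that of the array as a whole.

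**Figure D1:**
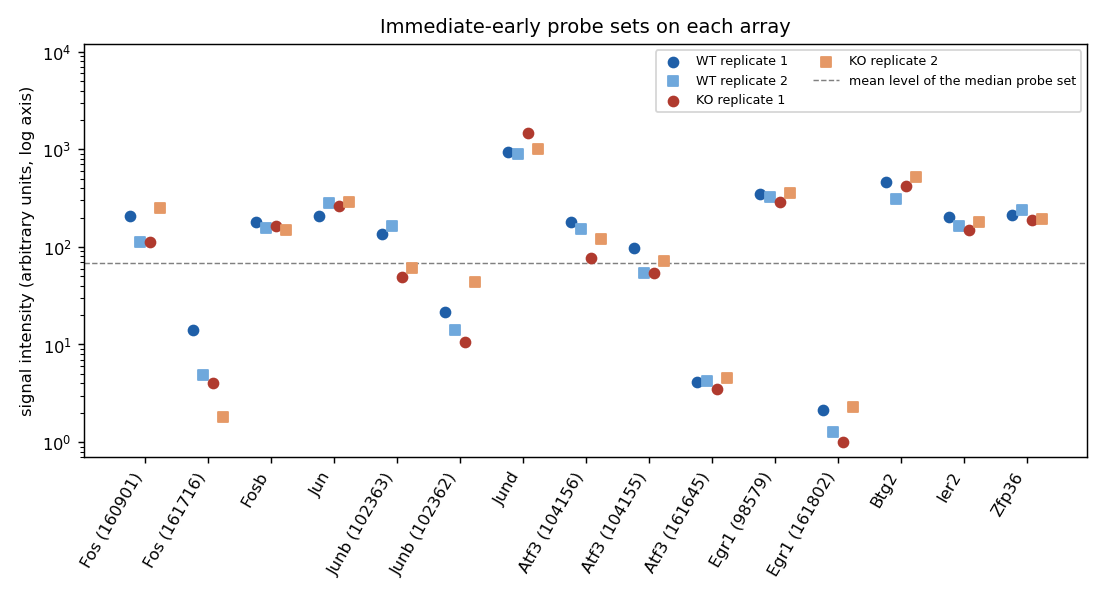
Signal intensity (log axis) of the 15 probe sets on each of the 4 arrays, with WT pools in blue and KO pools in red or orange, replicate 1 as circles and replicate 2 as squares. The dashed line marks 68.7, the mean level of the median probe set; Junb on probe set 102363 is the clearest gap between genotypes, from 135 and 164 in WT to 49.7 and 61.3 in KO.

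Fos, the founding FOS family member, varied more between pools than between genotypes. Its bright probe set, 160901_at, read 206 and 113 on the WT arrays and 113 and 248 on the KO arrays. The highest and the lowest value were both KO, and the genotypes overlapped. The pools of 1 genotype differed by 1.72-fold in WT and 2.07-fold in KO on the log2(intensity + 14) scale, while the log2 fold change between genotypes was 0.12 ± 0.41 with a 95% interval from -0.88 to 1.13. It was -0.40 without KO replicate 2, -0.27 without WT replicate 2 and 0.65 without KO replicate 1. The other Fos probe set, 161716_at, was far below the median probe set, at 14.1 and 4.83 on the WT arrays and 3.99 and 1.80 on the KO arrays, and averaging both turned the sign of the gene's log2 fold change to -0.16.

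Fosb, which encodes a FOS protein of similar dimerisation, read 181 and 155 on the WT arrays and 164 and 148 on the KO arrays. The values interleaved, and the log2 fold change was -0.09 ± 0.19. Its interval, -0.56 to 0.38, did not reach a 2-fold difference in either direction.

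Among the JUN proteins, which can pair with FOS or with each other, Junb had the lowest log2 fold change. Probe set 102363_r_at read 135 and 164 on the WT arrays, a mean of 150 ± 20.3 (SD, n = 2), and 49.7 and 61.3 on the KO arrays, a mean of 55.5 ± 8.19 (SD, n = 2), or 37.1% of WT. Both KO arrays lay below both WT arrays, and the pools of 1 genotype lay close together. The log2 fold change was -1.23 ± 0.27, with an interval from -1.89 to -0.58, and it stayed between -1.36 and -1.11 when any 1 array was left out. The second Junb probe set, 102362_i_at, made from the same GenBank sequence but dim, read 21.6 and 14.2 on the WT arrays and 10.7 and 43.4 on the KO arrays. Its genotypes overlapped, and its log2 fold change of 0.25 ± 0.47 had the opposite sign. The mean over both probe sets was -0.49. The suffixes _i and _r mark probe sets with fewer probes or with relaxed design rules, and neither Junb probe set was free of such a mark.

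Jund, the JUN member usually expressed without stimulation, read 934 and 890 on the WT arrays and 1471 and 1016 on the KO arrays. Both KO arrays were above both WT arrays, the only member probe set with that order, but KO replicate 1 stood well above KO replicate 2. The log2 fold change was 0.42 ± 0.18, with an interval from -0.02 to 0.85. Leaving out KO replicate 2 gave 0.68, and leaving out KO replicate 1 gave 0.15. Jun itself read 205 and 280 on the WT arrays and 260 and 289 on the KO arrays, with the genotypes overlapping and a log2 fold change of 0.18 ± 0.19.

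Atf3, a stress-induced factor that pairs with JUN proteins and often represses, was lower in KO on the brightest of its 3 probe sets. Probe set 104156_r_at read 179 and 153 on the WT arrays, a mean of 166 ± 17.8 (SD, n = 2), and 77.3 and 120 on the KO arrays, a mean of 98.5 ± 30.1 (SD, n = 2), with no overlap and a log2 fold change of -0.70 ± 0.27. Leaving out KO replicate 1 gave -0.42, and leaving out KO replicate 2 gave -0.98. Probe set 104155_f_at, made from the same sequence and marked by its suffix as shared with a family of similar transcripts, read 97.6 and 54.3 on the WT arrays and 53.6 and 71.4 on the KO arrays. There the genotypes overlapped and the log2 fold change was -0.20 ± 0.37. The third, 161645_r_at, read between 3.48 and 4.49 on all arrays, too dim to show a difference in either direction. The mean over the 3 probe sets was -0.30.

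**Figure D2:**
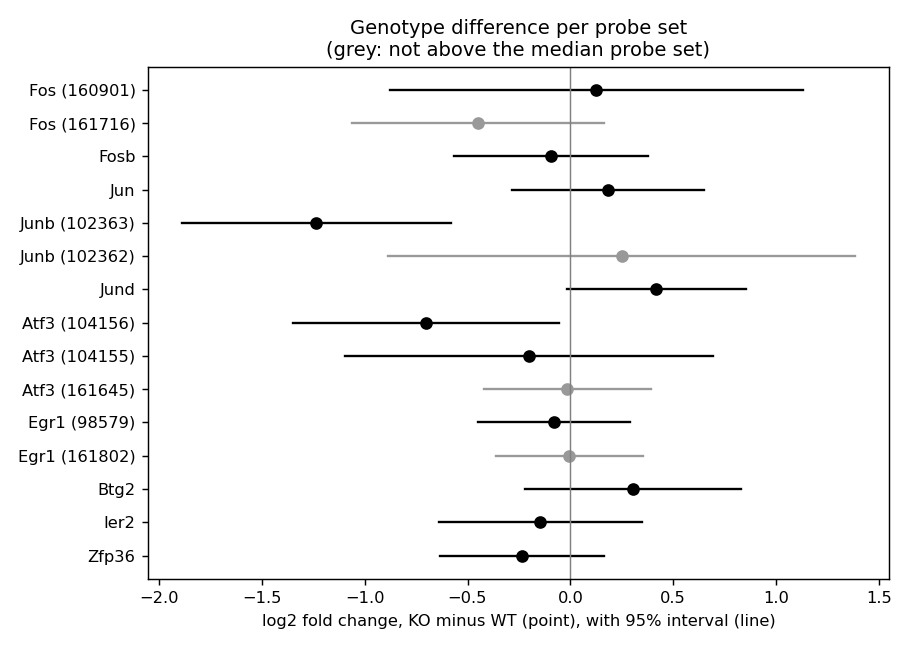
Log2 fold change, KO minus WT, of each of the 15 member probe sets (points) with its 95% interval from limma (lines); black marks the 11 probe sets above the median probe set and grey the 4 dim ones. Only the intervals of Junb on probe set 102363 (-1.89 to -0.58) and Atf3 on probe set 104156 (-1.35 to -0.05) leave out 0, before any adjustment for the 12422 probe sets fitted.

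The other members are not AP-1 subunits. Egr1, a zinc finger factor induced by growth factors and contraction, read 351 and 328 on the WT arrays and 290 and 354 on the KO arrays on 98579_at. Its log2 fold change of -0.08 ± 0.15 had an interval from -0.45 to 0.29, the narrowest of the 11 brighter member probe sets, so differences of 2-fold lay well outside it. The other Egr1 probe set read at most 2.27 on any array.

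Btg2, an anti-proliferative adaptor that recruits mRNA deadenylases, read 465 and 310 on the WT arrays and 425 and 525 on the KO arrays. WT replicate 2 was the low array, the genotypes overlapped, and the log2 fold change was 0.30 ± 0.22. It was 0.59 without WT replicate 1 and 0.02 without WT replicate 2. Ier2, a nuclear protein of the immediate-early response, read 204 and 164 on the WT arrays and 150 and 179 on the KO arrays, with overlap and a log2 fold change of -0.15 ± 0.20.

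Zfp36, which encodes tristetraprolin, binds AU-rich elements and speeds the decay of mRNAs that include those of cytokines and of Fos. It read 214 and 238 on the WT arrays and 187 and 194 on the KO arrays, so KO was below WT on every array, by a small step. The log2 fold change was -0.23 ± 0.16, with an interval from -0.63 to 0.17. The suffix of its probe set, _s, marks probes that can match more than 1 transcript.

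None of the members passed the fit over the whole table. With limma and Benjamini-Hochberg adjustment, 0 of 15 member probe sets had an adjusted p under 0.05, beside 0% of all probe sets, and the smallest adjusted p among them was 0.803, for Junb. At an unadjusted p under 0.05 there were 2 of 15 (Junb on 102363_r_at and Atf3 on 104156_r_at), beside 5.43% of all probe sets. Both KO arrays lay below both WT arrays in 4 of 15 (the brightest probe sets of Junb, Atf3 and Zfp36 and the dim one of Fos), beside 17.6%, and above them in 1 of 15, Jund, beside 17%. With 1 array left out, 2 arrays against 1 overlap less often by construction. Then 8 of 15 were higher without KO replicate 1, beside 36.7% of all probe sets, and 11 were lower without KO replicate 2, beside 35.3%. Without WT replicate 2, 7 were lower, beside 32.8%, and 2 were higher both without WT replicate 1 and without WT replicate 2, beside 32.9% and 33.7%. Because the genes were gathered with this contrast known, nothing is read from these counts. An exact permutation test of 2 arrays against 2 cannot give a two-sided p below 0.333.

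The members also differed between the pools of 1 genotype, and often in the same order. KO replicate 1 was the lowest of the 4 arrays in 10 of 15 member probe sets, against 26.7% of all probe sets. Counted by gene, with the brightest probe set of each, it was lowest for 6 of 10 genes (Fos, Junb, Atf3, Egr1, Ier2 and Zfp36), against 26.5% of all genes. KO replicate 2 was above KO replicate 1 for 8 of 10 genes, against 53.5% of all genes, and WT replicate 1 above WT replicate 2 for 7 of 10, against 49.4%. Both orders held together for 5 genes (Fos, Atf3, Egr1, Btg2 and Ier2), against 25.3%. Jund and Fosb ran the other way between the KO pools. These orders were noticed after the values had been seen, genes of 1 array are not independent, and no test was made of them.

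**Figure D3:**
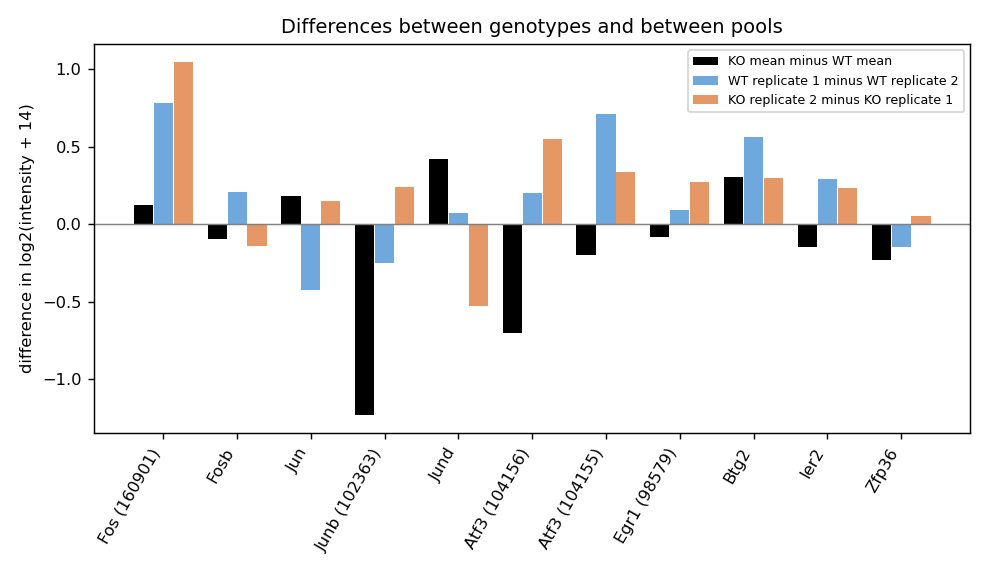
Differences in log2(intensity + 14) for the 11 member probe sets above the median probe set: KO mean minus WT mean (black), WT replicate 1 minus WT replicate 2 (blue) and KO replicate 2 minus KO replicate 1 (orange). For Fos the pool differences of 0.78 and 1.05 exceed the genotype difference of 0.12, while for Junb on probe set 102363 the genotype difference of -1.23 exceeds both.

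The wider pathway was covered by 6 lists with 141 genes, of which 108 were measured. Of these 108, 70 were above the median probe set. In KO, 53 were higher and 55 lower, and 0 passed the adjusted threshold in either direction, beside 0% of all probe sets. At an unadjusted p under 0.05 (limma), 4 were higher and 4 lower, beside 5.43% of all probe sets for both directions together. Both KO arrays were above both WT arrays for 19, beside 16.5% of all genes, and below them for 21, beside 18.2%, so these counts lay near the background. The median log2 fold change was -0.02. KO replicate 1 was the lowest array for 30 of the 108, or 27.8%, a share close to that over all genes.

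AP-1 partners and related leucine zipper factors were 10 higher and 7 lower of 17 measured (median log2 fold change 0.04). Xbp1, a factor of the unfolded protein response, read 540 and 502 on the WT arrays and 401 and 427 on the KO arrays (log2 fold change -0.32 ± 0.12). Cebpd, a factor induced in inflammation, read 486 and 556 on the WT arrays and 447 and 322 on the KO arrays (-0.44 ± 0.18). Neither genotype overlapped the other in these, and neither gene passed the adjusted threshold (limma adjusted p of 0.862 and 0.908). Over the list, 5 of 17 were higher without overlap, beside 16.5% of all genes, and 4 lower, beside 18.2%. Among the 5 was Fosl2, of the FOS family (log2 fold change 0.66 ± 0.28). It read 54.7 and 62.4 on the WT arrays and 97.6 and 103 on the KO arrays. At a limma adjusted p of 0.908 it did not pass either.

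Other immediate-early transcription factors were 11 higher and 9 lower of 20, with a median of 0.07 that turned to -0.093 with the level filter, -0.091 without WT replicate 2, -0.026 without WT replicate 1 and -0.047 without KO replicate 2. The zinc finger factor Klf4 read 256 and 234 on the WT arrays and 214 and 146 on the KO arrays (log2 fold change -0.43 ± 0.22), and its other probe set had -0.41. The helix-loop-helix inhibitor Id3 read 205 and 175 on the WT arrays and 161 and 137 on the KO arrays (-0.32 ± 0.20). Only genes above the median probe set were eligible to be named. The list's only gene with an unadjusted p under 0.05 (limma), Nr4a2, was dim and went the other way. It read 9.82 and 15.3 on the WT arrays and 40.7 and 56.1 on the KO arrays (1.23 ± 0.35). Other immediate-early and stress-induced genes were 15 higher and 13 lower of 28 (median 0.02). There the cell cycle inhibitor Cdkn1a read 125 and 107 on the WT arrays and 158 and 213 on the KO arrays (0.61 ± 0.23), with -0.09 on its other probe set, and the kinase Pim1 read 216 and 282 on the WT arrays and 307 and 409 on the KO arrays (0.50 ± 0.20), with -0.64 on its other probe set. In both genes the probe sets thus differed in sign.

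Relatives of Btg2 and Zfp36 were 2 higher and 3 lower of 5 (median -0.03). Zfp36l1, a close relative of Zfp36 that also binds AU-rich elements, had a log2 fold change of 0.20 ± 0.22, and Btg1, a relative of Btg2, of -0.22 ± 0.35. Kinases and factors upstream of these promoters were 9 higher and 13 lower of 22 (median -0.04). Map2k3, which activates p38 kinases, read 1891 and 1825 on the WT arrays and 1504 and 1596 on the KO arrays (log2 fold change -0.26 ± 0.10), with -0.18 and -0.08 on its other probe sets. Prkaca, the catalytic subunit of protein kinase A, overlapped between genotypes, at -0.22 ± 0.15.

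Genes known to carry AP-1 sites were 7 higher and 10 lower of 17, with a median of -0.16. The metallothionein Mt2 read 924 and 548 on the WT arrays and 465 and 400 on the KO arrays (log2 fold change -0.71 ± 0.24). Timp1, an inhibitor of matrix metalloproteinases, read 168 and 170 on the WT arrays and 56.7 and 149 on the KO arrays (-0.77 ± 0.40), with 0.17 on its other probe set, and KO replicate 1 alone was far below WT. The list's median was 0.025 without WT replicate 1 and -0.0064 without KO replicate 1, so the lower median rested on those arrays. Mt2 and Timp1 also answer to factors other than AP-1, and no gene of the list passed the adjusted threshold.

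The probe sets outside the group that ran most like the members were found by the root mean square difference of their deviations from their own mean over the 4 arrays, on the log2 scale. Closest to Fos were Map4k1 (0.07), Mcm7 (0.11) and Lrp10 (0.15), where Fos itself deviated by 0.47. Map4k1, a kinase of blood cells, read 119 and 65.9 on the WT arrays and 62.7 and 130 on the KO arrays, the same alternation of pools. Closest to Egr1 were Nans (0.0061), Eng (0.017) and Atp5d (0.018), and Egr1 itself deviated by only 0.11, so many flat probe sets could come near it.

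Closest to Junb on 102363_r_at were Rbp4 (0.13), Serpina1b (0.14) and Serpina1e (0.17), genes of plasma proteins made mainly by the liver, and Junb itself deviated by 0.63. Rbp4 read 264 and 259 on the WT arrays and 109 and 119 on the KO arrays. Serpina1b and Serpina1e are near-identical copies whose probes can share signal. Over a list of liver markers, 10 of 10 measured genes were lower in KO, 7 of them without overlap, at a median log2 fold change of -0.92. Their summed intensity was 2162 and 2722 on the WT arrays and 1034 and 915 on the KO arrays. Much of these sums was Hp, the brightest of the 10 on average, at 1505 and 934 on the WT arrays and 758 and 547 on the KO arrays. The median deviation of the 10 genes from their own means was 0.18 and 0.90 on the WT arrays and -0.60 and -0.42 on the KO arrays. The WT pools were thus less even than the sums show. Only 4 of the 10 were above the median probe set, and Alb (albumin) read 230.0 and 1016 on the WT arrays and 78.7 and 95.2 on the KO arrays. The part of liver-type RNA in the Junb value was not tested. In bulk RNA, fewer cells of a type and less RNA per cell cannot be told apart.

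**Figure D4:**
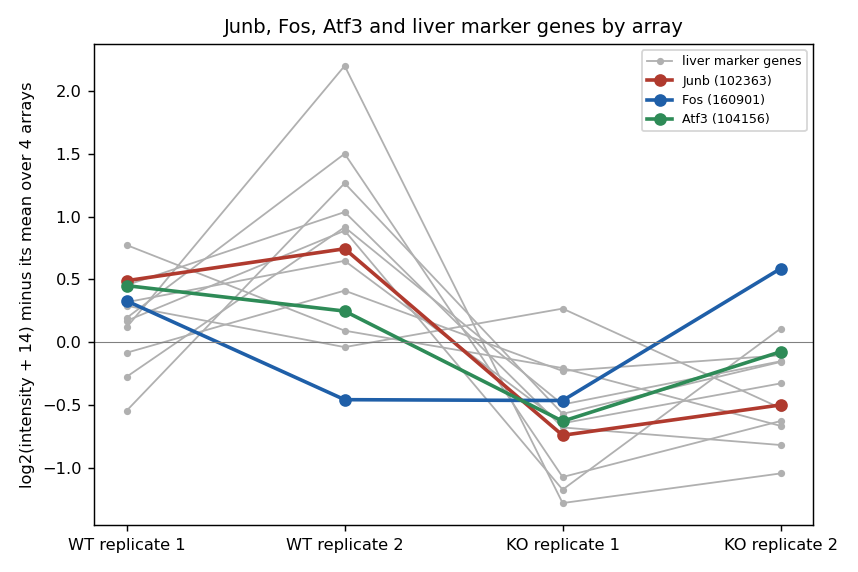
Log2(intensity + 14) minus its mean over the 4 arrays, for Junb, Fos and Atf3 on their brightest probe sets (coloured) and for the 10 measured liver marker genes (grey), by array; lines join the values of 1 gene and show no order in time. Junb and all 10 liver markers are lower in KO on average, whereas Fos alternates between pools.

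The arrays themselves were alike in scale, with medians of 69.2 and 68.4 on the WT arrays and 67.6 and 71.2 on the KO arrays. The list of skeletal muscle fibre genes was bright (15 of 16 above the median probe set). It summed to 147779 and 147529 on the WT arrays and 143184 and 157718 on the KO arrays. Its slow-muscle genes Myh7 and Tnnt1 read 1968 and 2338 on WT replicate 1 and 3666 and 3999 on WT replicate 2. They read 3452 and 4153 on KO replicate 1 and 2872 and 3255 on KO replicate 2. Adipocyte markers summed to 4332 and 2900 on the WT arrays and 3495 and 3072 on the KO arrays. Of these 7 genes, 2 were higher and 5 lower in KO on average, at a median log2 fold change of -0.21. Fibroblast and tendon markers summed to 10818 and 9655 on the WT arrays and 10554 and 9747 on the KO arrays. Endothelial markers summed to 1886 and 1894 on the WT arrays and 2013 and 1994 on the KO arrays. In KO, 4 of the 9 were higher on average and 5 lower. The targeted gene Crhr2 read 154 and 192 on the WT arrays and 100.4 and 75.1 on the KO arrays on its brighter probe set. The other, dim probe set read 18.8 and 45.3 on the WT arrays and 36.7 and 22.7 on the KO arrays, with overlap. Both are a limited check, because the labels do not say which part was deleted. Markers of exocrine pancreas were higher in KO in 11 of 11 cases, with sums of 1824 and 1765 for the WT pools, and of 13661 for the first and 4093 for the second KO pool. KO replicate 1 was also the array where 6 of 10 members were lowest. The actin control, whose 3' to 5' ratio moves with RNA quality, gave ratios of 0.624 and 0.686 for WT pools against 0.729 and 0.866 for KO pools. Summed markers of macrophages and neutrophils, cells that express these genes strongly when activated, ranged from 1553 to 1749 in WT and from 1609 to 1748 in KO, with 6 of 12 higher and 6 lower. Lymphocyte markers summed to 5464 and 3407 on the WT arrays and 3363 and 4599 on the KO arrays, with 7 of 10 higher in KO on average. Most of that sum was Ighm, and the other 9 genes summed to 1008 and 487 for the WT pools against 893 and 1093 for the KO pools. Blood markers summed to 7696 and 6404 on the WT arrays and 9811 and 8667 on the KO arrays, with 3 of 5 higher and 2 lower. Most of that sum was Hba-a1, at 6645 and 5359 for the WT pools against 8683 and 7747 for the KO pools. Smooth muscle and pericyte markers summed to 1414 and 1234 on the WT arrays and 1134 and 1240 on the KO arrays. Of these 6 genes, 1 was higher and 5 were lower. The part of these differences in the member values was not tested.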

How the data were processed

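The authors deposited linear signal intensities of all probe sets for 4 Affymetrix U74Av2 arrays. Per the labels' protocols, each array carried biotin-labelled total RNA pooled from 2 mice. For the probe summary and background method, the sources used here give no details. Trimming 2% at each end left a mean intensity of 200.2 in each array, so the authors had scaled the arrays, and array medians differed by 0.06 on the log2 scale. Genotypes were read from the titles, since the tissue and genotype fields hold each other's text.

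After 66 Affymetrix controls of 12488 probe sets were left out, log2(intensity + 14) was fitted with genotype in limma 3.58.1 (R 4.3.3; lmFit, eBayes with trend) without a level filter. Benjamini-Hochberg adjustment ran over 12422 probe sets, at a two-sided threshold of 0.05. The pseudocount is 20% of the table's median. The fit was tested on simulated data. The number of arrays limits the precision, and p-values measure only the spread between pools.

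The platform annotation gave 1 symbol to 10833 probe sets, several to 396 and none to 1193. Symbols were updated through gene identifiers of GRCm38.p6, and only probe sets with 1 symbol were named. For lists, each gene was read from its probe set with the highest mean. Beside the members, the 2 genes of each list with the smallest p among those above the median probe set were named. For likeness, the 3 closest genes to Fos, Junb and Egr1 were named. Genes used for the liver comparison, Nr4a2, Fosl2, Hba-a1, Myh7 and Tnnt1 were named after their values were seen. Members and lists were chosen with earlier results of these data known. Alternatives covered pseudocount, level filter, scaling, variance trend, replicate block, probe set choice and leaving out each array.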

Additional observations from a re-analysis of the deposited data

How the results depend on the processing

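The count of member probe sets past the adjusted threshold stayed at 0 under every alternative run (limma), and so did the count over the whole table. Pool numbers are shared between genotypes in the labels only as a name: deviations of same-numbered pools had a correlation of 0.0034 across probe sets. With the number as a replicate block, 0 probe sets passed over the whole table and the log2 fold change of Junb on 102363_r_at stayed at -1.23. Over pseudocounts of 3.5 and 56, the level filter, both scalings, the trend and the block, that value ranged from -1.38 to -0.88 and that of Atf3 on 104156_r_at from -0.76 to -0.53.

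With 1 array left out, the counts without overlap ranged from 1 to 8 for higher and from 4 to 11 for lower in KO, where 2 arrays against 1 gave 31.2% to 36.7% of all probe sets for higher and 32.8% to 35.3% for lower. With 1 array left out, the log2 fold change ranged from -0.40 to 0.65 for Fos on 160901_at, from -0.20 to 0.0087 for Fosb, from -0.028 to 0.40 for Jun, from -0.36 to 0.86 for Junb on 102362_i_at, from -0.55 to 0.15 for Atf3 on 104155_f_at, from -0.055 to 0.027 for Atf3 on 161645_r_at, from -0.22 to 0.057 for Egr1 on 98579_at and from -0.064 to 0.053 for Egr1 on 161802_i_at, so these turned sign. Averaging the probe sets of a gene turned Fos to -0.16 and moved Junb to -0.49 and Atf3 to -0.30. The median over the members ranged from -0.24 to 0.014, over AP-1 partners from -0.032 to 0.090, over BTG and Zfp36 relatives from -0.039 to 0.25, over upstream factors from -0.074 to 0.0016, over genes with AP-1 sites from -0.22 to 0.025 and over other immediate-early transcription factors from -0.091 to 0.013. The last median was 0.031 with 4 times the pseudocount, -0.093 with the level filter and 0.051 with all probe sets counted singly; the cause was not tested. For arrays left out, the lone array of a genotype is assumed to vary like the others. Signal below that of the median probe set limits 4 member probe sets, and Atf3 on 104155_f_at lay only just above that level.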
